A study of Mus musculus with 6 samples.

Results

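The genes described here encode the main scaffold proteins of the excitatory postsynaptic density: the Shank genes Shank1, Shank2 and Shank3, the Homer genes Homer1, Homer2 and Homer3, and the Dlg genes Dlg1, Dlg2, Dlg3 and Dlg4. They were taken by gene symbol from a table of 32201 genes, and all 10 were found there once. Each passed the filter on low values (a mean of at least 1 FPKM, the fragment count scaled to transcript length and library size), which left 13153 genes for testing. RNA came from the hippocampus of male C57BL/6N mice aged 8 weeks. Every mouse had been through chronic unpredictable mild stress, a schedule of varied mild stressors used to model depression, and received either baicalin at 20 mg/kg (3 libraries) or saline (3 libraries). Baicalin is a flavonoid glycoside of Scutellaria root, which the study's title calls an antidepressant. The unstressed control named in the labels was not analysed here, so both groups share the stress and the measured difference is that of baicalin against saline within stressed mice. The labels do not say whether each library is from its own animal, and p-values therefore cover library-to-library spread alone, which may be technical.

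At an excitatory synapse, scaffold proteins hold glutamate receptors opposite the site of release and tie them to signalling enzymes and to actin. Dlg proteins are membrane-associated guanylate kinases whose PDZ domains bind the tails of NMDA receptor subunits and of AMPA receptor auxiliary subunits. Dlgap proteins bridge Dlg to Shank, and Shank in turn binds Homer, which links the lattice to the group I metabotropic glutamate receptors and to inositol trisphosphate receptors. A short activity-induced product of Homer1 lacks the coiled coil through which long Homer proteins assemble, and it loosens this lattice. The deposited values are per gene, so short and long Homer1 products are not separated in them.

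Library totals ran from 61303274 to 67957752 counts, and mitochondrial genes took 7.18, 7.24 and 7.82% of counts in saline libraries 1 to 3 and 7.74, 7.71 and 8.69% in baicalin libraries 1 to 3. The tissue label was checked against marker genes. Prox1 of dentate granule cells stood at 7.81 to 12.2 FPKM, Fibcd1 of CA1 pyramidal cells at 26.6 to 43.8 FPKM and Slc17a7, a vesicular glutamate transporter gene of excitatory neurons, at 131 to 159.8 FPKM. Of 5 genes listed for cerebellum, where Homer3 is also abundant, Pcp2, Cbln1, Gabra6 and Car8 lay under the filter, and Gabra6 was listed at 0 in 5 of 6 libraries. Calb2, which hippocampal neurons also express, was the one listed cerebellar gene above it. In bulk tissue, fewer cells of a type and less RNA per cell cannot be told apart.

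The scaffolds covered a wide range of levels. On the FPKM scale, which corrects for transcript length, Dlg4, which encodes PSD-95, was the most abundant of the 10 at 43.1 ± 0.516 with saline and 42.3 ± 0.970 with baicalin (SD, n = 3 each). Dlg3 followed at 38.4 ± 0.244 and 36.0 ± 1.46 FPKM, and Shank1 at 27.8 ± 2.59 and 23.6 ± 0.719 FPKM. These 3 kept clear of each other and of the remaining genes in both groups. Dlg2 ranked next with saline (17.1 ± 5.39 FPKM), where its libraries overlapped those of Homer3 (13.4 ± 0.770), and Homer3 overlapped Shank3 (13.0 ± 0.0573). With baicalin Homer3 (14.1 ± 0.453 FPKM) lay above both, and Shank3 (10.8 ± 0.655) overlapped Dlg2 (9.32 ± 0.957). Homer2 (8.10 ± 0.270 and 6.43 ± 0.597 FPKM) stood alone in both groups. At the low end, Homer1 (6.00 ± 1.26 with saline, 3.91 ± 1.496 with baicalin) and Shank2 (5.87 ± 0.314 and 4.67 ± 0.383) overlapped in both groups, and Dlg1 (4.32 ± 0.272 and 4.67 ± 0.838) overlapped Shank2 with baicalin alone. Within each family, therefore, the levels were uneven, with Dlg4 and Dlg1 at the ends of the Dlg genes.

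The comparison of baicalin with saline asks how scaffold transcripts differ in stressed mice given the compound. In 8 of the 10 genes the log2 change was negative, and the median over the 10 was -0.24 against -0.00063 over all genes tested. The 3 Shank genes, Homer1, Homer2 and Dlg2 had 0.549 to 0.854 times the saline level. The other negative members, Dlg3 and Dlg4, had 0.941 and 0.986 times that level. Even so, 0 of 10 passed an adjusted p of 0.05 in edgeR's quasi-likelihood test, where 0.0456% of all genes did. At an unadjusted p under 0.05 in edgeR, 5 members (the 3 Shank genes, Homer2 and Dlg2) were lower and 0 higher. The background was 5.46% of all genes lower and 6.34% higher. The members were chosen with earlier results of these data known, so their counts and median beside those of all genes are a description. DESeq2 called 3 of the 10 lower, where it called 0.631% of all genes lower, and limma on log2(FPKM + 1) called 0, where it called 0.0608% of all genes. The groups did not overlap for 6 members, all with the lower values in baicalin, where 9.52% of all genes were separated that way; 0 members were separated with the higher values in baicalin, against 9.93% of all genes. By library, the median over members relative to the mean of the 6 libraries was 0.12 and 0.18 in saline libraries 1 and 2. It was -0.016 in saline library 3, and -0.049, -0.12 and -0.096 in baicalin libraries 1 to 3. Saline library 3 thus lay between the other saline libraries and the baicalin libraries, with 6 of its 10 scaffold values below the mean. Its mitochondrial share (7.82%) was likewise within the baicalin range and above those of the other saline libraries, and the part of this share in the scaffold values was not tested.

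**Figure D1:**
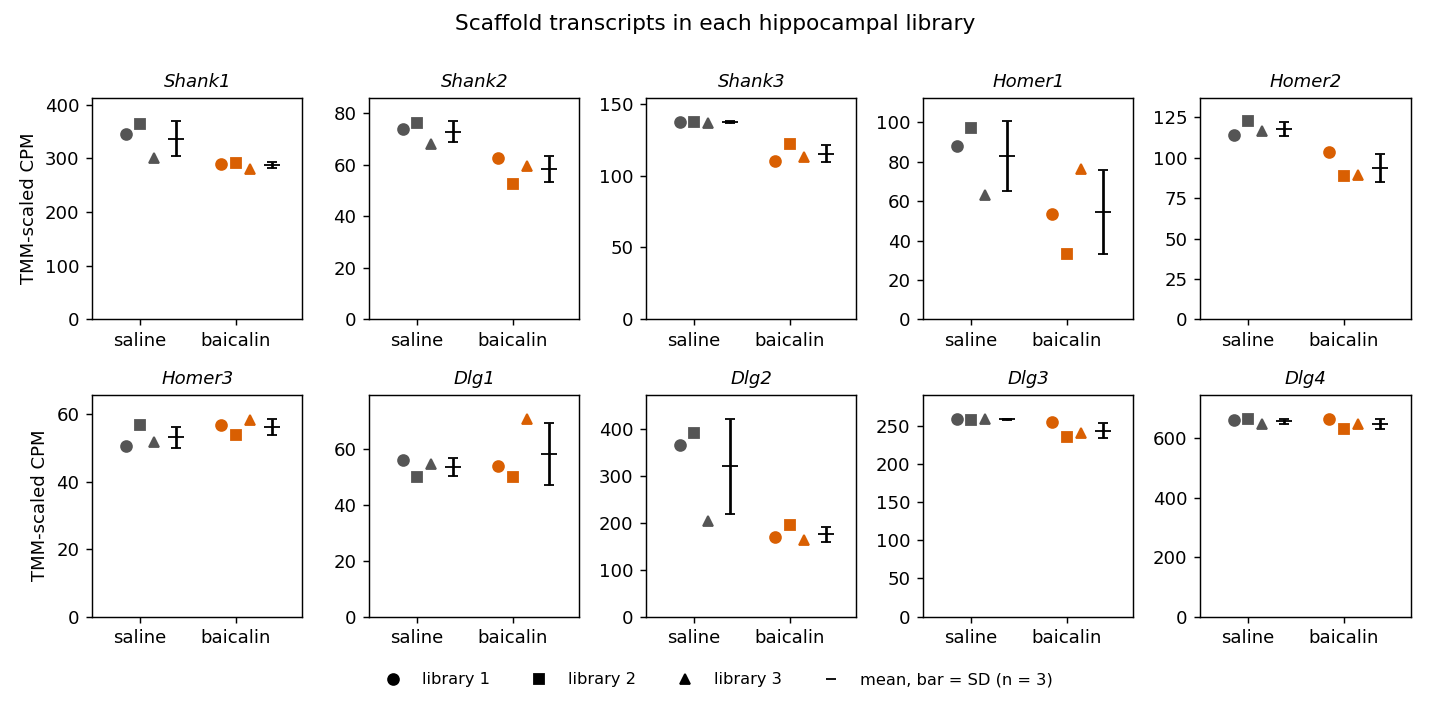
Level of each scaffold transcript (vertical axis, TMM-scaled CPM, starting at 0) in the 3 saline and 3 baicalin libraries, with the group mean and SD beside the points. The baicalin points lie below all saline points for Shank1, Shank2, Shank3, Homer2, Dlg2 and Dlg3, and the saline library 3 point for Dlg2 (203) sits near the baicalin points.

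The Shank genes encode the large organisers at the base of the density, and all 3 had negative changes of similar size. Levels in this and the following paragraphs are CPM, counts relative to library size after scaling by the trimmed mean of M values (TMM), in order of library number. Shank3 (ENSMUSG00000022623, chromosome 15, 89499623 to 89560261, plus strand) read 137, 137 and 136 CPM with saline and 110.3, 122 and 113 with baicalin. The saline libraries were nearly equal, and each baicalin library lay below them. Its log2 change was -0.25 ± 0.048 (SE), with adjusted p = 0.275 in edgeR. Over 18 alternative settings the adjusted p of Shank3 ran from 0.0148 (DESeq2) to 0.616, and the change from -0.32 to -0.19. Shank2 (ENSMUSG00000037541, chromosome 7, 144001928 to 144424494, plus strand) read 73.9, 76.0 and 68.2 CPM with saline and 62.6, 52.7 and 59.4 with baicalin, again without overlap. The log2 change of Shank2 was -0.32 ± 0.081, with adjusted p = 0.322 in edgeR and 0.0390 in DESeq2 (highest over the settings 0.638). Shank1 (ENSMUSG00000038738, chromosome 7, 44310253 to 44360572, plus strand) read 345, 363 and 301 CPM with saline and 289, 292 and 281 with baicalin. Saline library 3 was the nearest to the baicalin group, and the groups did not overlap. The change of Shank1 was -0.23 ± 0.072, with adjusted p = 0.360 in edgeR, and 0.153 to 0.657 over the settings.

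The stretch before the start of Shank3 is shown because this gene had the smallest p of the 10 in edgeR. Promoter windows, the 250 bases before a RefSeq start (GRCm38.p6, the patch series of the mm10 build that the submitters' processing notes name), were present for 8 of the 10 genes, with 18 windows in all. Shank1 and Shank2 had none. The Shank3 window, chr15:89499358-89499607 on the plus strand, lies outside the GENCODE gene and just before it.
Shank3: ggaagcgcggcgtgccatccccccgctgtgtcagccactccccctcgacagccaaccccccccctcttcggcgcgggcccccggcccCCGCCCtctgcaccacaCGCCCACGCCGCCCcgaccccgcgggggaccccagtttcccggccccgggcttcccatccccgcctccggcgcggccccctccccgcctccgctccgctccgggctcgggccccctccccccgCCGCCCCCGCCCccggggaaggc
Capitals here and below mark matches on either strand to GCGTGGGCG or GCGGGGGCG (EGR family motif), TGACG (the core of the cAMP response element), GGGCGG (GC box), TATAAA or CACGTG. The Shank3 window held 1 match to each EGR motif, beginning 146 and 22 bases before the start, and both overlap GC box matches, which begin 138, 23 and 17 bases before it. Among 32536 distinct windows of this length, 0.541% held GCGTGGGCG, 2.60% held GCGGGGGCG and 33.0% held GGGCGG. GC content was 82.4% in this window against a median of 52.4%. The full response element TGACGTCA and the AP-1 motif TGACTCA were each in 0 of the 18 windows, and in 1.56% and 4.45% of all windows. A match is a match of letters and shows neither binding nor use.

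Homer genes differed among themselves. Homer2 (ENSMUSG00000025813, chromosome 7, 81600481 to 81707527, minus strand), a long form that joins receptors to Shank, read 114, 123 and 116 CPM with saline and 104, 88.5 and 89.3 with baicalin. Each baicalin library lay below each saline library, with library 1 the closest. The log2 change of Homer2 was -0.33 ± 0.073 (SE), with adjusted p = 0.313 in edgeR, 0.0178 in DESeq2 and up to 0.638 over the settings. Homer1 (ENSMUSG00000007617, chromosome 13, 93299635 to 93405129, plus strand) read 88.1, 97.1 and 63.2 CPM with saline and 53.6, 33.4 and 76.1 with baicalin. These groups overlapped, since baicalin library 3 exceeded saline library 3, and the spread within groups was above that of 95.8% of tested genes. The change of Homer1 was -0.61 ± 0.30, with adjusted p = 0.475 in edgeR. It was -0.93 without baicalin library 3 and -0.35 without baicalin library 2, so single libraries moved it by more than 1.5 times. Homer3 (ENSMUSG00000003573, chromosome 8, 70282827 to 70294361, plus strand) was the member with the shortest exon length and read 50.6, 56.7 and 51.8 CPM with saline and 56.8, 53.7 and 58.3 with baicalin. Its groups overlapped, with a log2 change of 0.085 ± 0.067 (adjusted p = 0.630 in edgeR). The 3' end of Homer3 overlaps Ddx49, an RNA helicase gene on the opposite strand, at 7.04 to 8.92 FPKM. The strand setting of the counting was not given in sources used here, and reads of the 2 genes cannot be told apart there.

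RefSeq gives 2 windows for each of Homer1 and Homer2, and 1 of each is set out because these paralogs have the same direction of change but a very different spread. The Homer1 window shown (chr13:93303507-93303756, plus strand) lies within the GENCODE gene and outside its exons, and the Homer2 window shown (chr7:81706926-81707175, minus strand) lies within the gene with 19 of its bases in an annotated exon.
Homer1: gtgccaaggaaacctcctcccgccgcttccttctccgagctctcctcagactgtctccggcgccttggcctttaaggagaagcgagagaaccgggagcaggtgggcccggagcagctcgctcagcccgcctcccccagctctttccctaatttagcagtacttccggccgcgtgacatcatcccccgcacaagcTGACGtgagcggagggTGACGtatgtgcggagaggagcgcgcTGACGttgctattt
Homer2: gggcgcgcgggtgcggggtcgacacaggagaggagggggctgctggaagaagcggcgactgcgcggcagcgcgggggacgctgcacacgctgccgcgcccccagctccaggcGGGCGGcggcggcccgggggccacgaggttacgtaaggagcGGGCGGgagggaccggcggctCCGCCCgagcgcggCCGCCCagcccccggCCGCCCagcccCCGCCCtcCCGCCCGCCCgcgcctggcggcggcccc
This Homer1 window carried 3 matches to TGACG, beginning 56, 40 and 14 bases before the start. At least 1 such match was in 3 of the 18 member windows and in 17.9% of all windows, and 3 or more in 0.695% of all. The Homer2 window carried 0 matches to TGACG and 8 to GGGCGG, a number reached by 0.157% of windows. Its GC content was 83.2% against 62.4% for Homer1. At least 1 GGGCGG match was in 7 of the 18 member windows and in 33.0% of all windows. Among the 18, the Homer1 window shown had the most TGACG matches and the Homer2 window shown the most GGGCGG matches. The second window of Homer1 held none of the motifs searched, and that of Homer2 held 1 TATAAA match, no GC box and a GC content of 52.0%, so the contrast is between the windows shown.

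Among the Dlg genes, one stood far from the other three. Dlg2 (ENSMUSG00000052572, chromosome 7, 90476672 to 92449247, plus strand), which encodes PSD-93, read 365, 391 and 203 CPM with saline and 169, 194 and 163 with baicalin. Saline libraries 1 and 2 were well above every other library, while saline library 3 lay just above the highest baicalin library. The log2 change of -0.87 ± 0.24 (SE) was the largest in size of the 10, with adjusted p = 0.325 in edgeR. Without saline library 3 the change of Dlg2 was -1.11 and passed (adjusted p = 0.0307 in edgeR, where 0.106% of all genes passed), and over the 18 settings its adjusted p reached 0.644. The spread of Dlg2 within groups was above that of 93.8% of tested genes. Dlg3 (ENSMUSG00000000881, chromosome X, 100767722 to 100818410, plus strand), which encodes SAP102, read 259, 258 and 258 CPM with saline and 254, 235 and 239.7 with baicalin. The groups did not overlap, yet the difference was small, at -0.088 ± 0.042 (adjusted p = 0.453 in edgeR). Dlg4 (ENSMUSG00000020886, chromosome 11, 70016942 to 70047522, plus strand) read 661, 665 and 647 CPM with saline and 664, 631 and 650.0 with baicalin. Its groups overlapped with a log2 change of -0.020 ± 0.037 (adjusted p = 0.849 in edgeR), and only 2.28% of tested genes had as small a spread within groups. Dlg1 (ENSMUSG00000022770, chromosome 16, 31663443 to 31875129, plus strand), which encodes SAP97 and takes part in receptor trafficking, read 55.9, 49.9 and 54.7 CPM with saline and 53.8, 50.04 and 70.8 with baicalin. Baicalin library 3 alone was high, and the change of 0.12 ± 0.13 (adjusted p = 0.735 in edgeR) was -0.045 without it.

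Dlg2 is also the longest gene of the set, spanning 1972576 bases with 17 transcripts in the deposited table, and 21 other annotated genes overlap it, the most abundant of them at 0.127 FPKM. RefSeq gives 3 windows for Dlg2, of which the one outside annotated exons, chr7:92062144-92062393 on the plus strand, is shown as an internal start of this gene.
Dlg2: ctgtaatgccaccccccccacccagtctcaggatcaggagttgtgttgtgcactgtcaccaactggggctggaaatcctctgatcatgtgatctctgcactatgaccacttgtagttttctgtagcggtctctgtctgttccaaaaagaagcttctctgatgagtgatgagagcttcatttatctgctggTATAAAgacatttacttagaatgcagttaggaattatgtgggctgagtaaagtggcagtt
It held 1 TATAAA match, beginning 60 bases before the start, where 12.3% of all windows hold that motif. The other Dlg2 windows held none of the motifs searched. Because values are per gene, which of these starts supplied the Dlg2 reads was not measured.

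**Figure D2:**
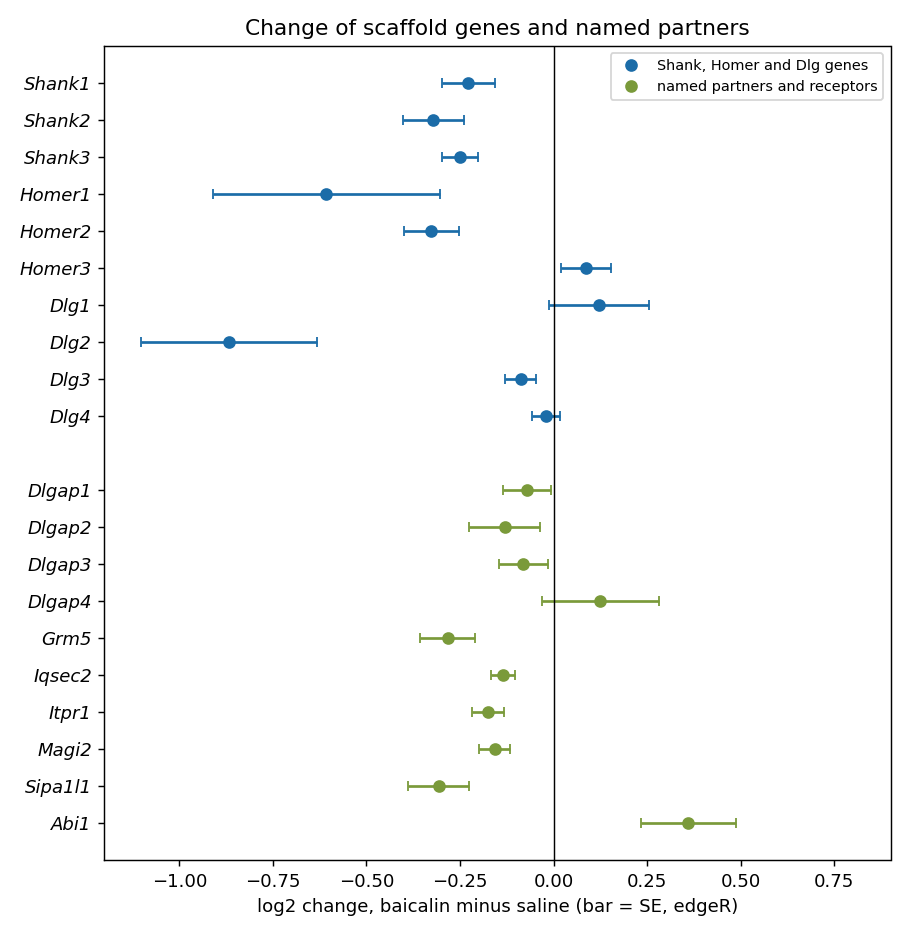
Log2 change, baicalin minus saline (horizontal axis; points with standard errors from edgeR), for the 10 scaffold genes, the Dlgap genes and the partners and receptors named for their small p. Dlg2 (-0.87) and Homer1 (-0.61) have the widest errors, Dlg4 (-0.020) lies close to 0, and Abi1 (0.36) is the largest positive value.

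The scaffold transcripts are long. Median exon length was 10752 bp for the 10 members and 4097.5 bp for all genes tested, and Homer3 (3440 bp) was the one member below the median of all genes. With a trend on exon length taken out of each library, 7 members stayed negative with a median of -0.18, and 4 were lower at an unadjusted p under 0.05 in edgeR, where 4.17% of all genes were. Shank3 was then at -0.19, Shank2 at -0.25, Homer2 at -0.25 and Dlg2 at -0.78, while Dlg4 turned to 0.062. Under TPM scaling, which brings FPKM to the same sum in each library, the members' median was -0.31, against -0.074 over all genes tested. In limma 7 members were then lower at an unadjusted p under 0.05, where 10.8% of all genes were. Homer3 was then at 0.0070 and Dlg3 at -0.17. In limma, the split over all genes at that p was 865 higher and 674 lower on log2(FPKM + 1). It was 408 and 1420 with TPM scaling.

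The share of each paralog in the summed FPKM of its family does not depend on how libraries are scaled, though it does depend on the correction for transcript length. A two-sided exact permutation test of 3 libraries against 3 cannot give a p under 0.1, and 10 shares were compared, so no share could pass 0.05. Shank1 made up 59.6 ± 1.87% with saline and 60.4 ± 0.358% with baicalin (SD, n = 3 each; exact permutation p = 0.8). Shank3 made up 27.9 ± 1.75 and 27.7 ± 1.20% (exact permutation p = 1.0, n = 3 each), and Shank2 12.6 ± 0.119 and 11.9 ± 1.15% (exact permutation p = 0.5, n = 3 each). The groups overlapped for each of these shares. The summed level of the 3 Shank transcripts was 47.6, 48.9 and 43.3 FPKM with saline and 39.2, 40.1 and 38.1 with baicalin.

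Some Homer and Dlg shares did not overlap between groups. Homer3 held 47.3, 48.0 and 50.9% of Homer FPKM with saline and 56.5, 61.4 and 55.8% with baicalin, a difference of 9.15 percentage points (exact permutation p = 0.1, n = 3 each). Homer1 held 23.6, 23.6 and 17.8% against 15.3, 10.98 and 20.9% (exact permutation p = 0.2, n = 3 each). Homer2 held 29.1, 28.3 and 31.2% against 28.2, 27.6 and 23.3% (exact permutation p = 0.1, n = 3 each). Baicalin library 1 thus lay only just below saline library 2. The Homer2 difference between group means, -3.18 percentage points, was -0.338 in shares of counts, without the length correction, and -1.64 without baicalin library 3. Homer3, whose own level overlapped between groups, thus had the larger share where both paralogs had lower means. In the Dlg family, Dlg2 held 18.4, 19.5 and 11.3% with saline and 9.52, 11.4 and 9.40% with baicalin (exact permutation p = 0.2, n = 3 each). Dlg4 held 40.9, 40.8 and 44.2% against 46.0, 45.6 and 46.0% (exact permutation p = 0.1, n = 3 each), a difference of 3.89 percentage points that was 6.40 in shares of counts. Saline library 3 was the saline library nearest to the baicalin group for Homer3, Dlg2 and Dlg4, but the farthest from it for Homer2 (31.2%).

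**Figure D3:**
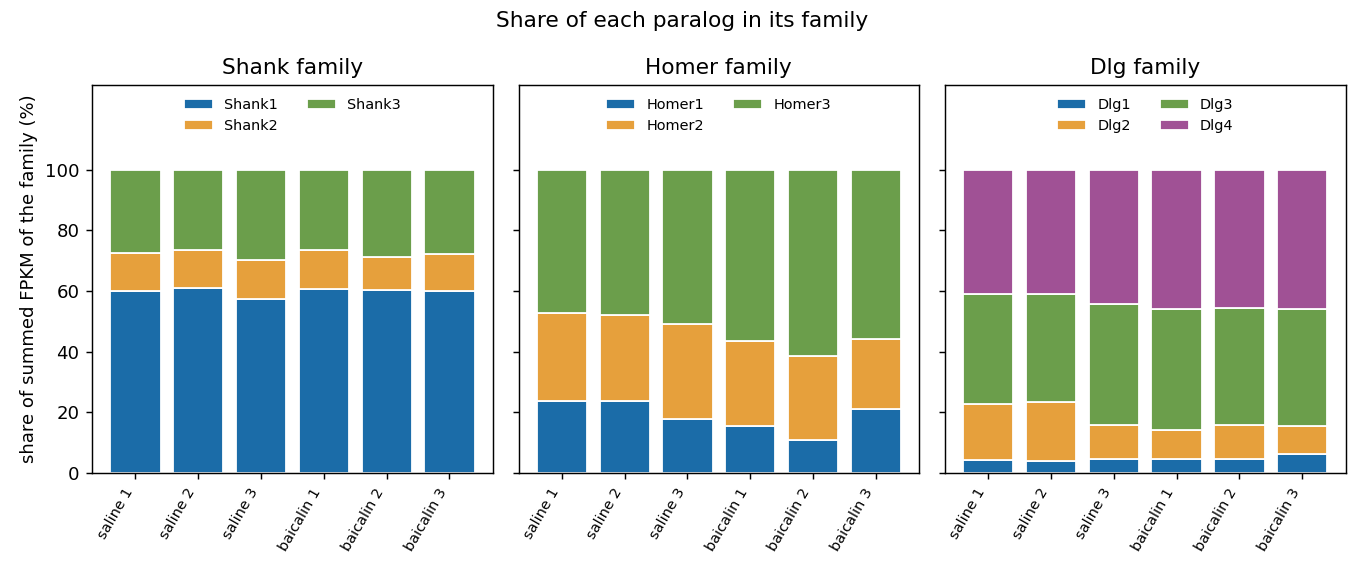
Share of each paralog in the summed FPKM of its family (vertical axis, percent) in each library, as stacked bars that add to 100. Shank1 takes the largest Shank segment in each library, Homer3 takes 55.8 to 61.4% in the baicalin libraries, and the Dlg2 segment is largest in saline libraries 1 and 2 (18.4 and 19.5%).

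Proteins that bind these scaffolds were read from a list of 27 partner genes, and 20 receptor and channel genes formed a second list; every gene of both was tested. Of the partners 21 had negative and 6 positive changes (median -0.071), with 0 past the adjusted threshold in edgeR, and 7 lower and 1 higher at an unadjusted p under 0.05. Over all genes tested, 5.46% were lower and 6.34% higher at that p. Of the receptors and channels 15 were negative and 5 positive (median -0.10), with 0 past the adjusted threshold, and 5 lower and 0 higher at an unadjusted p under 0.05 in edgeR. Both medians were nearer 0 than that of the scaffolds, and a difference between the lists was not tested. These lists were likewise chosen with earlier results of these data known. With the length trend removed, 4 genes of the 2 lists were lower and 3 higher at an unadjusted p under 0.05 in edgeR, in place of 12 and 1, while 4.17% of all genes were lower and 4.96% higher. Without saline library 2 the counts were 5 and 0, against 3.58% and 4.42% of all genes.

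The direct bridge between Dlg and Shank showed no separation of the groups. Dlgap1 was at -0.071 ± 0.065 (SE), Dlgap2 at -0.13 ± 0.095, Dlgap3 at -0.081 ± 0.065 and Dlgap4 at 0.13 ± 0.16, with adjusted p from 0.609 to 0.768 in edgeR, and the groups overlapped for each. Dlgap2 was at -0.048 without baicalin library 3. The sign of Dlgap1 turned with the length trend removed (0.032) and that of Dlgap4 without saline library 1 (-0.041). The partners of smallest p on the lower side were Iqsec2, an Arf guanine nucleotide exchange factor gene, Magi2, a further scaffold gene, and Sipa1l1, which encodes a spine-associated Rap GTPase-activating protein. Iqsec2 read 273, 270.4 and 267 CPM with saline and 245, 246 and 246 with baicalin, a narrow separation of -0.14 ± 0.033 (adjusted p = 0.322 in edgeR). Magi2 was at -0.16 ± 0.042 and Sipa1l1 at -0.31 ± 0.082 (adjusted p = 0.324 for both in edgeR; Sipa1l1 0.0455 in DESeq2). With the length trend removed Magi2 was at -0.086. On the higher side stood Abi1, which encodes an actin regulator that binds Shank, at 0.36 ± 0.13 (adjusted p = 0.393 in edgeR). Its baicalin libraries ran from 147 to 214 CPM and its saline libraries from 141 to 146, and the change was 0.23 without baicalin library 1.

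Of the receptor genes tied to Homer, Grm5, which encodes a group I metabotropic receptor, read 156, 169 and 171 CPM with saline and 150.3, 129.5 and 128.1 with baicalin. The groups did not overlap, though baicalin library 1 came close, and the change was -0.28 ± 0.074 (SE; adjusted p = 0.324 in edgeR). Itpr1, the inositol trisphosphate receptor gene, read 453, 482 and 451 CPM with saline and 419.7, 407 and 401 with baicalin, at -0.18 ± 0.043 (adjusted p = 0.322 in edgeR) and at -0.070 with the length trend removed. The other receptor genes lower at an unadjusted p under 0.05, named after their values were seen, were Grin2a (-0.19), Grin2b (-0.18) and Gria3 (-0.35), which encode NMDA and AMPA receptor subunits; their adjusted p in edgeR ran from 0.377 to 0.387. Each had all baicalin libraries below all saline libraries, as had 9.52% of all genes tested. Picking genes by a small p favours such a separation. Arc, an activity-induced gene of the partner list that the naming rule did not select, was looked up because Homer1 also has an activity-induced product. It read 133, 135 and 83.2 CPM with saline and 89.4, 77.1 and 86.5 with baicalin (-0.47 ± 0.18, adjusted p = 0.408 in edgeR). Like Homer1 and Dlg2, Arc was high in saline libraries 1 and 2 and lower in saline library 3.

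Across the 6 libraries, the genes whose log2 CPM ran closest to that of Shank3 were Zer1, Klhl25 and Desi2, each with Pearson r = 0.99. These values come from the same 6 libraries and contain the difference between groups, and they are given as a description. Zer1 was at -0.14, Klhl25 at -0.27 and Desi2 at -0.19, with adjusted p from 0.335 to 0.369 in edgeR.

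Markers of cell types moved beside these values. Of 6 CA1 pyramidal markers 5 were negative, 3 of them lower at an unadjusted p under 0.05 in edgeR, where 5.46% of all genes were. The summed level of the CA1 markers was 623 to 746 CPM with baicalin and 771 to 801 with saline. For 6 dentate granule markers 5 were positive, with sums of 434 to 449 and 290.1 to 447 CPM, the lowest being saline library 2. The 6 general excitatory markers (3 positive, 3 negative) summed to 6427 to 7128 CPM with baicalin and 6914 to 7306 with saline. At the same unadjusted p in edgeR, 2 excitatory markers were lower and 0 higher. For dentate markers 1 was higher and 0 lower, where 6.34% of all genes were higher. For 6 interneuron markers the sums were 743 to 783 and 729 to 779 CPM. Those of 6 astrocyte markers were 1921 to 1995 and 1892 to 1984. Those of 6 oligodendrocyte markers were 2013 to 2494 and 2047 to 2381. At the same p in edgeR, 2 astrocyte markers and 1 interneuron marker were higher and 0 lower. For oligodendrocytes 1 marker was lower and 0 higher. Of 6 CA2 and CA3 markers 1 was higher and 1 lower, and of 5 tested endothelial markers 1 was higher and 0 lower. Among 5 oligodendrocyte precursor and 6 microglial markers 0 were higher and 0 lower. Of the 6 genes listed for meninges 4 were tested, with sums of 25.5 to 31.4 CPM with baicalin and 26.6 to 58.6 with saline; each of the 4 was highest in saline library 3. For choroid plexus 2 of 5 were tested, with sums of 51.9 to 110.3 and 40.0 to 77.3. Of 5 thalamus genes 3 were tested, all positive, with sums of 44.6 to 68.0 CPM with baicalin and 39.4 to 58.7 with saline. In the lists named here 0 markers were at 0 in all libraries. The part of these markers in the scaffold values was not tested.

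**Figure D4:**
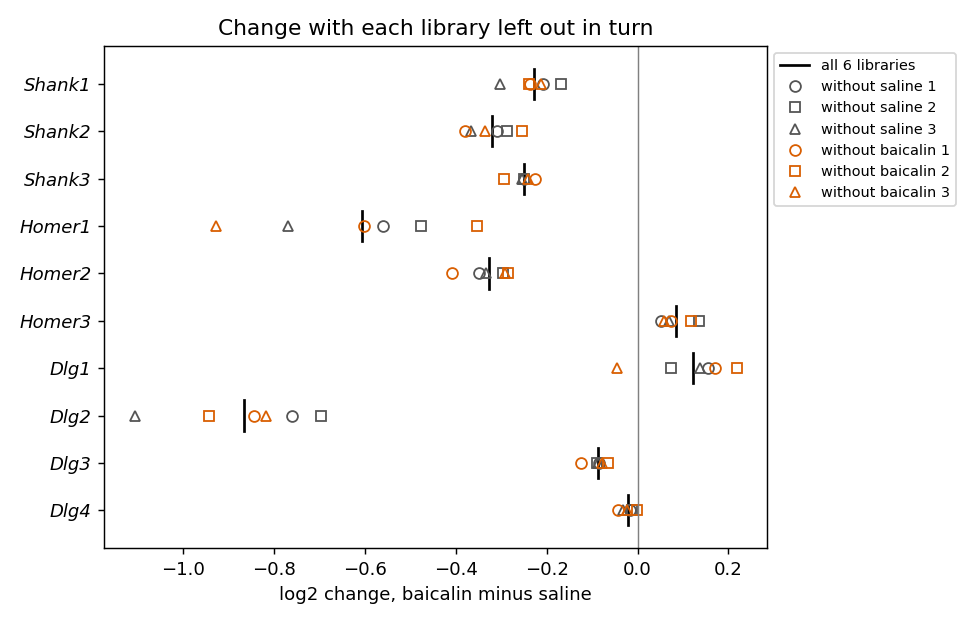
Log2 change, baicalin minus saline (horizontal axis), of each scaffold gene with each library left out in turn (open symbols) and with all 6 (black bars). Shank and Homer2 values stay below 0 throughout, Homer1 runs from -0.93 to -0.35, Dlg2 from -1.11 to -0.70, and Dlg1 crosses 0 without baicalin library 3.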

How the data were processed

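The deposited table gives whole-number counts and FPKM per gene and library. Per the file headers the deposited counts are raw, and library totals differ. The deposited FPKM values are scaled by the authors to transcript length and mapped fragments, per the file headers. The submitters' processing notes name bcl2fastq 2.0, HISAT2, StringTie, DESeq2, limma and mm10; their roles were not given in sources used here. The table has 12 other per-sample columns, left out because their names fit no label. All 10 members have the coordinates of GENCODE M21.

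Members and lists were chosen with earlier results of these data known. Counts, for genes averaging 1 FPKM or more, were scaled by TMM and tested with edgeR 4.0.16 (quasi-likelihood, treatment term, R 4.3.3), with Benjamini-Hochberg adjustment over all genes tested and a threshold of 0.05. Standard errors were taken as the absolute log2 change over the root of the F statistic. Alternatives used DESeq2 1.42.0, limma 3.58.1 on log2(FPKM + 1), other filters and scalings, a length trend, a replicate block, and each library left out. The fit was tested on simulated counts. Named were the members, fixed list genes (Dlgap1 to Dlgap4, Grm5 and others not reported here), up to 4 further list genes per direction with the smallest unadjusted p under 0.05, and the 3 genes most correlated with the member of smallest p.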

Additional observations from a re-analysis of the deposited data

How the results depend on the processing

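Of the scaffold calls, 17 of the 18 alternatives to the main test gave either 0 or 1 among the 10 genes. DESeq2 called 211 genes in place of 6, with 3 scaffold genes (Shank3, Homer2 and Shank2) and 1 partner (Sipa1l1) among them. With the replicate number as a block 0 genes passed. Deviations from the group means correlated at 0.091, 0.052 and -0.024 between libraries of the same number. With 3 libraries per group these values cannot settle whether such libraries are paired, and the labels do not say. The block changed no scaffold call. Leaving out 1 library gave 2 to 39 genes (the 2 when baicalin library 3 was left out and the 39 when baicalin library 1 was, with 10 for saline library 2 and 14 for saline library 3) and 0 to 1 scaffold genes, the 1 being Dlg2 without saline library 3. Members lower at an unadjusted p under 0.05 numbered 4 to 7 over all alternatives, while 3.20 to 10.8% of all genes were lower, the 7 and the 10.8% both under TPM scaling. Paralog shares that did not overlap between groups numbered 3 of 10, and 3 to 7 with 1 library left out, the 7 without saline library 3. A share that separates 3 libraries from 3 has an exact permutation p of 0.1. Smaller groups separate more readily, so the counts with 1 library left out cannot be set against the 3. Shares of a family add to a fixed total and are not independent. The sign turned for Dlg4 (0.062) and Dlgap1 (0.032) with the length trend removed, Dlg1 without baicalin library 3 (-0.045 to 0.22 with 1 library left out) and Dlgap4 without saline library 1 (-0.041 to 0.27). It also turned for the difference in share, in percentage points, of Shank1 (-0.210 without saline library 3, up to 1.60), Shank2 (0.0082 without baicalin library 2, down to -1.08) and Shank3 (0.405 without baicalin library 1 and 0.786 without saline library 3, down to -0.912). The cause was not tested. A filter of at least 5 FPKM left out Homer1 and Dlg1. Each scaffold had 2163 or more counts in each library, and there were 3 libraries per group.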
